A study of Mus musculus with 12 samples.

Results

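A set of 10 genes that govern fluid and salt movement across the colonic epithelium were followed through RNA-sequencing of the distal colon of Spry2IEKO mice and their littermates: Guca2a, Guca2b, Gucy2c, Cftr, Slc26a3, Slc9a2, Slc9a3, Scnn1a, Scnn1b and Scnn1g. They were taken by name for their roles, and all 10 were found among the 35240 gene symbols of the deposited table. Spry2IEKO mice (Vil1::Cre;Spry2-f/f) carry floxed alleles of Spry2 (Sprouty2, a feedback inhibitor of receptor tyrosine kinase signaling) and a Cre recombinase driven by the villin promoter, so that deletion is limited to the intestinal epithelium. Spry2FF controls (Spry2-f/f) carry the same floxed alleles without Cre. Each genotype had 6 mice, 3 from litter A and 3 from litter B. Spry2FF mice were 3 males and 3 females, Spry2IEKO mice were 1 male and 5 females, and the 3 Spry2IEKO mice of litter A were all female. The labels give an age of 6 weeks in the description of rearing and 8 weeks in the description of extraction. The tissue was full-thickness distal colon, so each value mixes epithelium with muscle and connective tissue.

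Guanylin (Guca2a) and uroguanylin (Guca2b) are small peptide hormones secreted into the gut lumen. They bind guanylate cyclase C (Gucy2c) on the apical membrane, which makes cyclic GMP. Cyclic GMP opens the chloride channel CFTR (Cftr) and restrains apical sodium-hydrogen exchange, so that chloride and water move into the lumen. In the opposite direction, SLC26A3 takes up chloride in exchange for bicarbonate, the exchangers NHE2 (Slc9a2) and NHE3 (Slc9a3) take up sodium, and the epithelial sodium channel ENaC, built from alpha (Scnn1a), beta (Scnn1b) and gamma (Scnn1g) subunits, completes sodium uptake in the distal colon under the control of aldosterone.

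The hormones lie side by side and end in the same pattern of cysteines, which is why their coding ends are shown first. On GRCm38 (mm10, GENCODE release M21), Guca2a (ENSMUSG00000023247) spans chr4:119637704-119639471 on the plus strand and Guca2b (ENSMUSG00000032978) spans chr4:119656607-119658954 on the minus strand. They are 17135 bases apart with 0 annotated genes between them. The last 15 codons before the stop are given 5′ to 3′, with cysteine codons in capitals. Both stretches lie in exon 3, at chr4:119639228-119639272 on the plus strand for Guca2a and at chr4:119656795-119656839 on the minus strand for Guca2b.
Guca2a: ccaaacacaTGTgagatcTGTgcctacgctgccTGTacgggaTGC
Guca2b: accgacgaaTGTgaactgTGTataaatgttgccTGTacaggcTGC
The 4 cysteine codons stand at the same places in both genes, codons 4, 7, 12 and 15 of the stretch, and 29 of the 45 bases are identical. These codons encode the disulfide-bonded end of the peptides that engages the receptor.

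Upstream sequence is shown for the hormones and for Slc26a3, the most abundant of the 10 genes, because the neighbouring hormones differed widely in level and Slc26a3 stood higher in the litter in which Guca2a was lower. It comes from RefSeq (GRCm38.p6) and stops before the first base of the most abundant transcript of each gene. For Slc26a3 that transcript starts at chr12:31438219, inside the annotated gene (chr12:31390871-31473917), so upstream here means before that start. The 4 short motifs were searched on both strands over the window from 250 bases before to 50 bases after the start: TTTATG (bound by CDX factors), GTTAAT (bound by HNF1 factors), AGAACA (bound by steroid receptors) and TGACGTCA (bound by cyclic AMP-responsive factors). They do not contain each other. Capitals mark matches within the bases shown.
Guca2a, chr4:119637482-119637703, plus strand: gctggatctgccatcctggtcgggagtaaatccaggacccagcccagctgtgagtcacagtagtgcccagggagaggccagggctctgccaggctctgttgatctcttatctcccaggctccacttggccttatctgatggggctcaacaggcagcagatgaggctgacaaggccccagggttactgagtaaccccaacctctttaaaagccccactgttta
Guca2b, chr4:119658955-119659195, minus strand: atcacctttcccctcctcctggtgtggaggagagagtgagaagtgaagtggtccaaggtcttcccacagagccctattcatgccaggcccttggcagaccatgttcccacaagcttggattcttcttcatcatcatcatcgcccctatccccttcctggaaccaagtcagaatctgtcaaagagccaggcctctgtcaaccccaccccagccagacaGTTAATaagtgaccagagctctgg
Slc26a3, chr12:31437969-31438218, plus strand: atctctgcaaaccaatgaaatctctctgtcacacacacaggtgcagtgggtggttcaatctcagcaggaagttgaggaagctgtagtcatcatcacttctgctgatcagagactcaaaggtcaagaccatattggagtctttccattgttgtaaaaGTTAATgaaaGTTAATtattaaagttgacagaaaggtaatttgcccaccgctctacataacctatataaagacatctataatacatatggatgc
GTTAAT occurred 2 times upstream of Slc26a3 and 1 time upstream of Guca2b, and 7.2% of the 27025 RefSeq promoters of the same length held it. AGAACA occurred 1 time each in the windows of Guca2a and Slc26a3, though not wholly within the bases shown, against 19.0% of promoters. TTTATG was found in the window of Scnn1g alone among the 7 of 10 genes with a promoter entry, against 12.1% of promoters, and TGACGTCA in none of the 7, against 1.9%. A match is a run of letters and was not tested for binding.

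Levels are in normalized TPM, TPM scaled once more between mice, which is a per-length unit and allows genes to be set beside each other. Slc26a3 was the most abundant, at 895.6 ± 309.5 (SD, n = 12), and ranked 144 among all genes. Guca2a followed at 312.8 ± 85.7 and did not overlap with Slc26a3 above it or with Gucy2c below it in any mouse. Gucy2c (96.2 ± 8.61), Scnn1a (85.2 ± 8.76) and Slc9a2 (79.3 ± 10.4) formed a group whose neighbouring ranges overlapped. Cftr stood at 33.3 ± 6.91, Scnn1g at 21.9 ± 8.80, Scnn1b at 17.4 ± 4.73 and Guca2b at 14.4 ± 3.26, again with overlapping ranges between neighbours. Slc9a3 was lowest, at 2.53 ± 2.43, and ranked 12348. NHE2 transcripts thus outnumbered NHE3 transcripts in every mouse, and guanylin outnumbered uroguanylin by 12.8 to 36.3 times. The spread across mice was narrowest for Gucy2c, with a coefficient of variation of 8.96%, and widest for Slc9a3, at 95.9%.

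**Figure D1:**
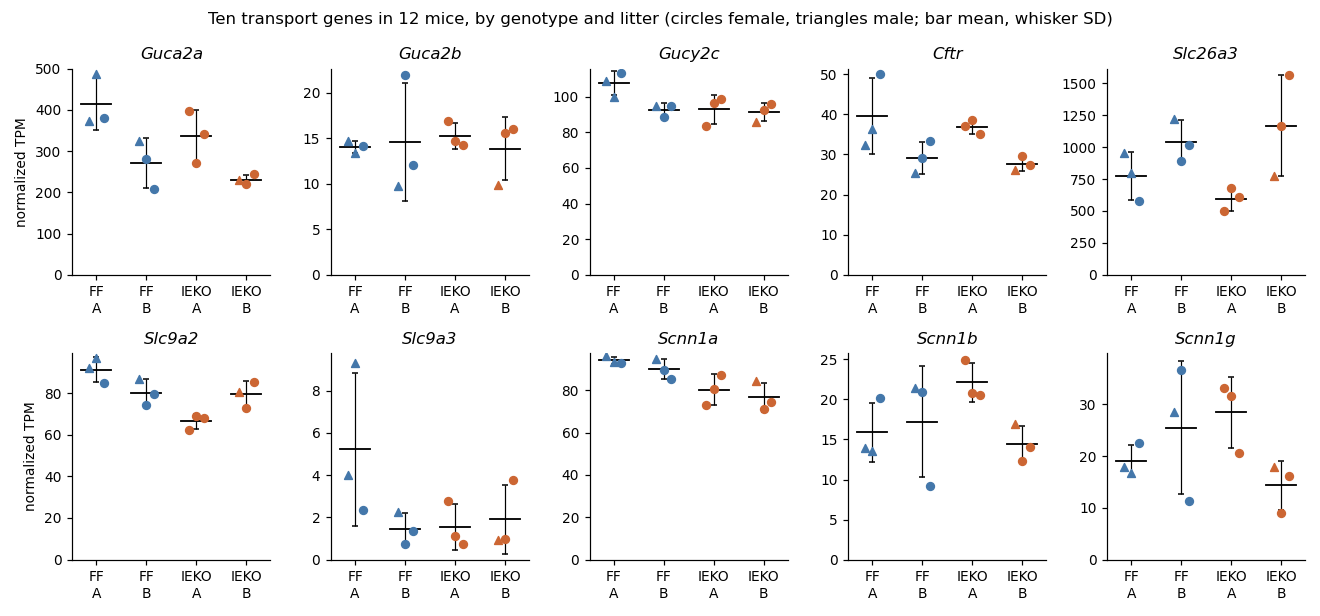
Normalized TPM (vertical axes, each from 0) of the 10 genes in each mouse, by genotype (FF, Spry2FF; IEKO, Spry2IEKO) and litter (A, B), with circles for females, triangles for males, horizontal bars for means and whiskers for SD (n = 3). Guca2a and Cftr sit lower and Slc26a3 sits higher in litter B in both genotypes, while Scnn1a sits lower in Spry2IEKO mice of both litters.

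The deleted gene was checked first. Spry2 stood at 27.7 in Spry2FF and 20.04 in Spry2IEKO mice, without overlap. The exact permutation test, two-sided here and throughout, gave p = 0.00216, and no split of 6 against 6 mice can give less. In the fit across all genes its log2 fold change was -0.45 and did not pass (limma, adjusted p = 0.16). Of all genes tested, 0.403% did not overlap between genotypes, 0.189% higher and 0.214% lower in Spry2IEKO mice. Totals ranged from 918816 to 1069158 per mouse and genes above 0 from 18654 to 19752. Read depth cannot be recovered from these values. Of the epithelial markers, which included Epcam, Cdh1 and Vil1, 8 of 8 passed the filter on low values, and of 5 squamous markers only Krt14 did. Krt5 was at most 0.209, Krt4 at most 0.127 and Trp63 at most 0.148 normalized TPM. Krt14 stood at 2.44 ± 0.808 in Spry2FF and 1.23 ± 0.466 in Spry2IEKO mice (log2 fold change -0.76, limma, unadjusted p = 0.006, adjusted p = 0.656), and the squamous sum ran from 0.962 to 4.12. The summed adipocyte markers ran from 0.922 to 208.1 and were highest in Spry2IEKO replicates 4 and 5 of litter A, so the main litter results below are also given without these mice. The summed B cell markers ran from 0.789 to 278.2. Retained-intron transcripts also differed between litters. Over 6010 genes, their median share of a gene's transcripts averaged 6.56% for litter A (6.27% to 6.92%) against 8.97% for litter B (7.59% to 9.95%). These ranges did not overlap. As a percent of the total normalized TPM, retained-intron transcripts ran from 4.56% to 5.12% (litter A) and from 4.75% to 6.03% (litter B), with overlap. The first part of the library names also differed between litters, so litter cannot be told apart from anything handled along with it, and the part of these library differences in the litter results was not tested.

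The genome-wide comparisons were between genotypes and between litters. By genotype, 5 of 15879 genes passed an adjusted p of 0.05 (0.0315%, limma with Benjamini-Hochberg adjustment; 0.0252% higher and 0.0063% lower in Spry2IEKO mice), and 0 of the 10 transport genes did. At an unadjusted p under 0.05 there were 981 genes (6.18%). Of the 10, 8 were lower and 2 higher in Spry2IEKO mice, 2 had an unadjusted p under 0.05 by limma, and their median log2 fold change was -0.12 against 0.01 over all genes. By litter, with genotype in the model, 696 genes passed (4.38%), 171 of them higher (1.08%) and 525 lower (3.31%) in litter B. Guca2a and Cftr were 2 of these, both lower in litter B. The median log2 fold change of the 10 genes between litters was -0.20 against -0.05 over all genes. Since the tissue is bulk, fewer cells of a type and less RNA per cell cannot be told apart in any of these values.

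**Figure D2:**
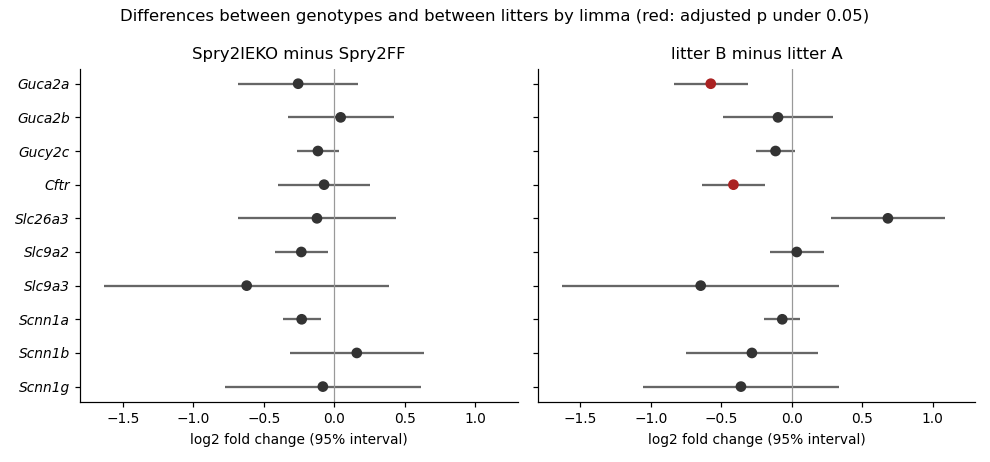
Log2 fold changes (horizontal axes) of the 10 genes between genotypes (left) and between litters (right), with 95% intervals from limma over 12 mice and red points for an adjusted p under 0.05. By genotype the intervals of Scnn1a and Slc9a2 lie below 0 but their adjusted p are 0.561 and 0.733, and by litter Guca2a (-0.57) and Cftr (-0.41) pass.

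Of the hormones and their receptor, guanylin was lower in litter B and passed the test. In litter A, Guca2a stood at 373.6, 486.1 and 380.4 in Spry2FF mice and at 397.2, 270.6 and 341.2 in Spry2IEKO mice. In litter B it stood at 325.4, 280.1 and 207.5 in Spry2FF mice and at 228.6, 220.1 and 243.2 in Spry2IEKO mice. Litter B was lower in both genotypes, and the litters overlapped through Spry2FF replicates 9 and 10 and Spry2IEKO replicate 5. Litter A averaged 374.8 ± 70.6 and litter B 250.8 ± 44.3 (SD, n = 6), a log2 fold change of -0.57 (SE 0.12, limma, adjusted p = 0.0264). The exact permutation test between litters gave p = 0.00649, and exchange within genotypes gave p = 0.005, the smallest it can give. Without the 2 mice richest in adipocyte genes the log2 fold change was -0.60 (limma, adjusted p = 0.0869). Over 12 other settings of the fit the adjusted p ranged from 0.0135 to 0.307, under 0.05 in 9. It was also above 0.05 without Spry2FF replicate 3 (0.0545) and without Spry2IEKO replicate 6 (0.0518). Between genotypes Guca2a was 342.2 ± 95.3 in Spry2FF and 283.5 ± 70.8 in Spry2IEKO mice, a log2 fold change of -0.26 with a 95% interval from -0.68 to 0.17 (limma, adjusted p = 0.877). With a mouse left out this change ran from -0.39 (without Spry2FF replicate 13) to -0.15 (without Spry2FF replicate 3).

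Uroguanylin, next to guanylin on the chromosome, gave no call in either comparison. Guca2b averaged 14.7 ± 1.18 (litter A) and 14.2 ± 4.68 (litter B), with log2 fold changes of -0.10 by litter and 0.04 by genotype (SE 0.18 and 0.17, limma). Its highest value, 22.0, was in Spry2FF replicate 10, and its lowest, 9.73, in Spry2FF replicate 9 of the same litter. The ratio of guanylin to uroguanylin, which is free of scaling between mice, averaged 25.8 ± 5.89 for litter A against 19.3 ± 7.85 for litter B, and did not pass the exact permutation test (p = 0.0823). By genotype it was 25.4 ± 9.08 in Spry2FF and 19.7 ± 4.47 in Spry2IEKO mice (exact permutation p = 0.288). It was 29.6 ± 6.24 in the 4 males and 19.0 ± 5.22 in the 8 females, values given without a test because the sexes are unevenly divided over genotypes.

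The receptor was the steadiest of the 10 genes. Gucy2c ran from 88.7 through a median of 97.5 to 113.4 in Spry2FF mice and from 83.7 through 94.2 to 98.6 in Spry2IEKO mice, with overlapping groups. The log2 fold change by genotype was -0.12 with a 95% interval from -0.27 to 0.04, and by litter -0.12 with an interval from -0.25 to 0.02 (limma). The exact permutation tests, p = 0.113 by genotype and 0.106 by litter, gave p = 0.0498 by genotype without Spry2FF replicate 10 and p = 0.00216 by litter without Spry2IEKO replicate 4. The 3 highest values, 113.4, 109.1 and 100.1, were those of the 3 Spry2FF mice of litter A.

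The chloride channel fell and the chloride exchanger stood higher in litter B. Cftr, on chr6:18170687-18322768, was 32.2, 36.4 and 50.2 in Spry2FF and 37.1, 38.6 and 35.0 in Spry2IEKO mice of litter A. In litter B it was 25.3, 29.0 and 33.3 in Spry2FF and 26.2, 29.6 and 27.3 in Spry2IEKO mice. Within Spry2IEKO mice the litters did not overlap, as for 19.2% of all genes, and across all mice the overlap came from Spry2FF replicates 2 and 13. The log2 fold change by litter was -0.41 (SE 0.10, limma, adjusted p = 0.0436; exact permutation p = 0.00433). This call was close to the threshold: the adjusted p was above 0.05 in 11 of 12 fits that left out a mouse (at most 0.0993). It ranged from 0.0119 to 0.372 over 12 other settings of the fit, under 0.05 in 6. Without the 2 mice richest in adipocyte genes the log2 fold change was -0.39 (limma, adjusted p = 0.194). By genotype Cftr differed by -0.07 on the log2 scale, with a 95% interval from -0.40 to 0.26.

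Slc26a3, on chr12:31390871-31473917, is the apical anion exchanger whose loss in humans causes congenital chloride diarrhea. In litter A it stood at 952.5, 797.2 and 579.2 in Spry2FF and at 496.8, 681.8 and 611.5 in Spry2IEKO mice. In litter B it stood at 1222, 892.1 and 1013 in Spry2FF and at 770.2, 1168 and 1562 in Spry2IEKO mice. Litter means were 686.5 ± 165.0 and 1105 ± 280.2, overlapping through Spry2FF replicates 2, 3 and 10 and Spry2IEKO replicate 8. The log2 fold change of 0.68 (SE 0.18) did not pass by limma (adjusted p = 0.0572), and the exact permutation test gave p = 0.0108. Of 12 other settings of the fit, 1 brought the adjusted p under 0.05, as did 2 of 12 fits that left out a mouse (from 0.0362 to 0.118). Without the 2 mice richest in adipocyte genes the log2 fold change was 0.59 (limma, adjusted p = 0.232). Between genotypes the log2 difference was -0.12, with an interval from -0.68 to 0.44.

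Set against each other within a mouse, the channel and the exchanger separated the litters most clearly of the 5 ratios computed. This ratio is built from the Cftr and Slc26a3 values already compared by litter, so its test is not separate from theirs. The litter tests of the ratios were added after the data were seen. Cftr over Slc26a3 was 0.0591 ± 0.0191 in litter A (lowest 0.0338, median 0.0570, highest 0.0866) and 0.0271 ± 0.00705 in litter B (lowest 0.0175, median 0.0289, highest 0.0340). The ranges touched only through Spry2FF replicate 2 of litter A and Spry2IEKO replicate 8 of litter B. The mean log2 ratio differed by -1.10 (litter B minus litter A), a fold of 0.468 (exact permutation p = 0.00433, and 0.005 with exchange within genotypes), with differences of -0.86 in Spry2FF and -1.33 in Spry2IEKO mice. Without the 2 mice richest in adipocyte genes it was -0.99 (exact permutation p = 0.00952). By genotype the difference was 0.05 (exact permutation p = 0.913). The other 4 ratios, tested in both comparisons without adjustment, had exact permutation p from 0.0823 to 0.708.

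Of 8 markers of surface colonocytes, the cells where Slc26a3 is expressed, 1 (Muc3) was higher in litter B by limma (adjusted p = 0.0212). Of all genes, 1.08% were called higher and 3.31% lower in litter B. The median log2 fold change of the 8 was 0.42, from 0.0054 for Slc20a1 to 0.72 for Muc3, against -0.05 over all genes. By limma 6 of the 8 had an unadjusted p under 0.05 by litter, as did 3475 of all 15879 genes. The summed level of the 8 ran from 11200 to 17010 (litter A) and from 15470 to 22750 (litter B). Crypt base and cycling markers summed to 119.1 ± 4.54 and 119.3 ± 11.4. Among markers of the distal end of the gut, Hoxd13 was higher in litter B (0.36, limma, adjusted p = 0.0248) and the other 3 did not pass, and among 8 epithelial markers Cdh1 was lower (-0.22, limma, adjusted p = 0.0282) and the others did not pass. The part of these cells and of position along the gut in the litter differences of Slc26a3, Cftr and Guca2a was not tested.

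The make-up of the Slc26a3 transcripts differed by litter as well. The coding transcript made up 91.6% of the gene, and retained-intron transcripts ranged from 3.51% to 6.07% (litter A) and from 7.17% to 10.9% (litter B), with no overlap (means 5.12% and 8.95%, exact permutation p = 0.00216). Without the 2 mice richest in adipocyte genes the difference was 3.67 percentage points (exact permutation p = 0.0143). The main retained-intron transcripts had means of 39.6 and 26.5 normalized TPM. Among 6010 genes with such transcripts, 306 were separated by litter (5.09%), 297 of them in the same direction (4.94%) and 9 in the opposite direction (0.15%). These shares are estimates by kallisto, and this comparison was chosen after the values were seen. With coding transcripts alone, the log2 fold change of Slc26a3 by litter was 0.63 (limma, adjusted p = 0.0749) and that of Cftr was -0.40 (limma, adjusted p = 0.0574). For Scnn1b, the share of the transcript annotated for nonsense-mediated decay was 15.03% ± 7.11 for litter A against 23.5% ± 6.00 for litter B (exact permutation p = 0.0584, and 0.035 with exchange within genotypes).

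**Figure D3:**
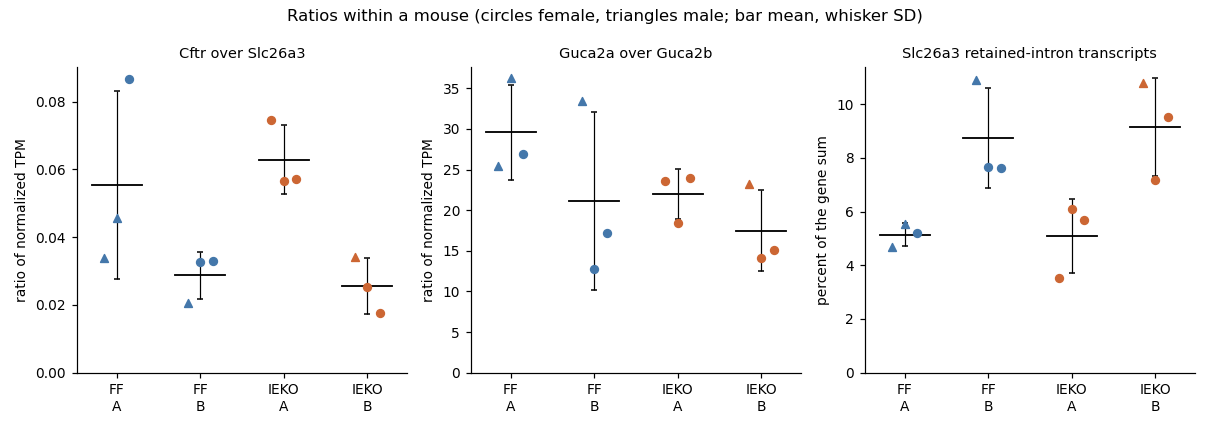
Cftr over Slc26a3 (left), Guca2a over Guca2b (middle), both as ratios of normalized TPM, and the share of Slc26a3 made up by retained-intron transcripts in percent (right), per mouse by genotype (FF, IEKO) and litter (A, B), with circles for females, triangles for males, bars for means and whiskers for SD (n = 3). The channel to exchanger ratio is 0.0338 or more in litter A and 0.0340 or less in litter B, and the retained-intron share is at most 6.07% in litter A and at least 7.17% in litter B.

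Of the sodium-hydrogen exchangers, NHE2 stood lower in Spry2IEKO mice in litter A. Slc9a2, on chr1:40680574-40769273, was 91.9, 96.9 and 85.0 in Spry2FF and 62.1, 69.0 and 68.1 in Spry2IEKO mice of litter A, without overlap, as were 11.9% of all genes in that litter. In litter B it was 87.0, 74.0 and 79.7 in Spry2FF and 80.3, 72.9 and 85.2 in Spry2IEKO mice, fully overlapping. Over both litters the log2 fold change was -0.23 (SE 0.09, limma, unadjusted p = 0.0181, adjusted p = 0.733). The exact permutation test gave p = 0.026, and p from 0.013 to 0.0606 when a mouse was left out, above 0.05 in 5 of 12 cases. The log2 fold change was -0.45 in litter A alone and -0.01 in litter B alone. The difference between these effects was 0.44 (SE 0.13, limma, unadjusted p = 0.005, adjusted p = 0.998). Genome-wide, 2 genes passed this interaction (0.0126%), and 0 of the 10 transport genes did. Sex moved with this result, since Slc9a2 was 89.0 ± 7.07 in males and 74.5 ± 8.27 in females and litter A held male Spry2FF mice but no male Spry2IEKO mouse. With sex as a covariate the log2 fold change by genotype was -0.17 (limma, unadjusted p = 0.0567), and among females alone it was -0.16 (unadjusted p = 0.168).

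NHE3, the main apical exchanger of the small intestine and proximal colon, was near the low end of measurement. Slc9a3 ran from 0.733 through a median of 2.30 to 9.32 in Spry2FF mice and from 0.734 through 1.06 to 3.80 in Spry2IEKO mice. Its log2 fold changes, -0.62 by genotype and -0.65 by litter, had 95% intervals from -1.63 to 0.39 and from -1.63 to 0.34 (limma). The highest value was in Spry2FF replicate 3, and without that mouse the changes were -0.28 by genotype and -0.34 by litter.

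Among the ENaC subunits, alpha stood lower in Spry2IEKO mice of both litters, by about the same amount. Scnn1a, on chr6:125320659-125344943, was 96.0, 93.4 and 93.0 in Spry2FF and 72.9, 80.7 and 87.2 in Spry2IEKO mice of litter A. In litter B it was 94.7, 89.5 and 85.4 in Spry2FF and 84.4, 71.2 and 74.2 in Spry2IEKO mice. The groups overlapped through a single pair of mice, Spry2FF replicate 13 and Spry2IEKO replicate 6, so the genotypes were not fully apart. The mean was 92.0 ± 3.898 in Spry2FF and 78.5 ± 6.61 in Spry2IEKO mice, a log2 fold change of -0.23 (SE 0.06, 95% interval from -0.37 to -0.10). It did not pass the test across all genes (limma, unadjusted p = 0.00252, adjusted p = 0.561), while the exact permutation test of this gene alone gave p = 0.00433, and p = 0.005 with exchange within litters. The log2 change was -0.23 in each litter alone, and the difference between litters was 0.0004 (SE 0.12). With sex as a covariate it was -0.20 (limma, unadjusted p = 0.00848).

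Epithelial markers stood lower in Spry2IEKO mice as well. Their sum was 7029 ± 531.4 in Spry2FF and 6200 ± 524.0 in Spry2IEKO mice, 6 of the 8 markers were lower in Spry2IEKO mice with a median log2 fold change of -0.16, and 0 of 8 passed by limma (4 had an unadjusted p under 0.05). When values were scaled to these markers, the log2 fold change of Scnn1a was -0.11 (limma, unadjusted p = 0.123) and that of Slc9a2 was -0.12 (unadjusted p = 0.159). Goblet cell markers, summed, stood at 9278 ± 1698 in Spry2FF and 13920 ± 2908 in Spry2IEKO mice, with 7 of 7 higher, and tuft cell markers at 12.2 ± 2.26 and 22.3 ± 6.16. Surface colonocyte markers were lower in 7 of 8 cases, with a median of -0.26. The part of a changed mix of epithelial cells in the genotype values was not tested.

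The beta and gamma subunits varied together over the 12 mice (r = 0.88, a description). Scnn1b and Scnn1g lie on chromosome 7 on the same strand, 96562 bases apart with 1 gene (Gm44740) between them. Scnn1b ran from 9.21 through a median of 17.0 to 21.4 in Spry2FF mice and from 12.3 through 18.8 to 25.0 in Spry2IEKO mice. Scnn1g ran from 11.4 through 20.3 to 36.6 in Spry2FF mice and from 9.004 through 19.3 to 33.1 in Spry2IEKO mice. Genotypes overlapped for both genes. The beta to alpha ratio was 0.179 ± 0.0530 in Spry2FF and 0.233 ± 0.0619 in Spry2IEKO mice (exact permutation p = 0.115). The gamma to beta ratio was 1.33 ± 0.217 in Spry2FF and 1.13 ± 0.273 in Spry2IEKO mice (exact permutation p = 0.197), with a log2 difference of -0.24 that became -0.42 without the 2 mice richest in adipocyte genes (exact permutation p = 0.00952). By litter, gamma was 19.1 ± 3.15 and 25.5 ± 12.9 in Spry2FF mice of litters A and B, and 28.5 ± 6.83 and 14.4 ± 4.72 in Spry2IEKO mice. The genotype effect on Scnn1g thus pointed up in litter A (0.55) and down in litter B (-0.71), a difference of -1.26 (SE 0.55) that did not pass (limma, unadjusted p = 0.0429, adjusted p = 0.998). Scnn1b overlaps Cog7 on the opposite strand, which had a mean of 18.3, and the counting rests on transcript sequences, so its values carry that uncertainty where reads were not assigned by strand.

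Wider transport genes were read from lists of 50 genes, of which 46 passed the filter on low values. By genotype 0 passed and 10 had an unadjusted p under 0.05 by limma, against 6.18% of all genes, and the median was -0.05 against 0.01 over all genes. The lowest log2 fold change was that of Sgk1 (-0.84, SE 0.35), the kinase that keeps ENaC at the cell surface. Next came Fxyd4 (-0.76, SE 0.22), an aldosterone-induced partner of the sodium pump, and Slc4a4 (-0.47, SE 0.16), a sodium bicarbonate cotransporter. Slc4a4 averaged 57.15 in males (44.44 to 63.27) and 36.29 in females (27.98 to 43.84), without overlap, and the sexes were unevenly divided over genotypes. The highest were those of Fxyd3 (0.42), another partner of the pump, Best2 (0.23), a bicarbonate-conducting channel of goblet cells, and Hsd11b2 (0.22), the enzyme that shields the mineralocorticoid receptor from glucocorticoids.

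By litter 4 of the 46 passed, 1 higher and 3 lower in litter B, against 1.08% and 3.31% of all genes, with a median of -0.12 against -0.05. Sgk1 rose by 0.96 (SE 0.24, limma, adjusted p = 0.0429), from 127.7 ± 54.4 to 249.9 ± 110.6 with overlapping litters. The Sgk1 call was lost in 10 of 12 fits that left out a mouse (adjusted p at most 0.0922). Slc9a3r2, a scaffold that holds NHE3 and CFTR at the apical membrane, fell by 0.78 (SE 0.10, limma, adjusted p = 0.0065). It ran from 9.21 to 12.96 (litter A) and from 5.30 to 7.63 (litter B), without overlap, against 3.72% of all genes tested (0.781% higher and 2.94% lower in litter B). The cotransporter Slc4a7 fell by 0.43 (adjusted p = 0.0197) and Chp1, a cofactor of sodium-hydrogen exchangers, fell by 0.21 (adjusted p = 0.0413), a call also lost in 10 of 12 such fits (at most 0.0913). Atp12a, the colonic hydrogen-potassium pump (0.56), Slc9a3r1, another scaffold (0.29), Npr1, the natriuretic peptide receptor (-0.67), and Kcnma1, a potassium channel (-0.51), were the others among the 3 highest and 3 lowest log2 changes by sign and did not pass. Without the 2 mice richest in adipocyte genes, 0 of the 46 and 17 of all genes passed by litter (limma), and without Spry2IEKO replicate 5 alone 1 of the 46 did. The log2 fold changes by litter without the 2 mice were -0.71 for Slc9a3r2, -0.40 for Slc4a7, -0.21 for Chp1 and 1.13 for Sgk1.

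**Figure D4:**
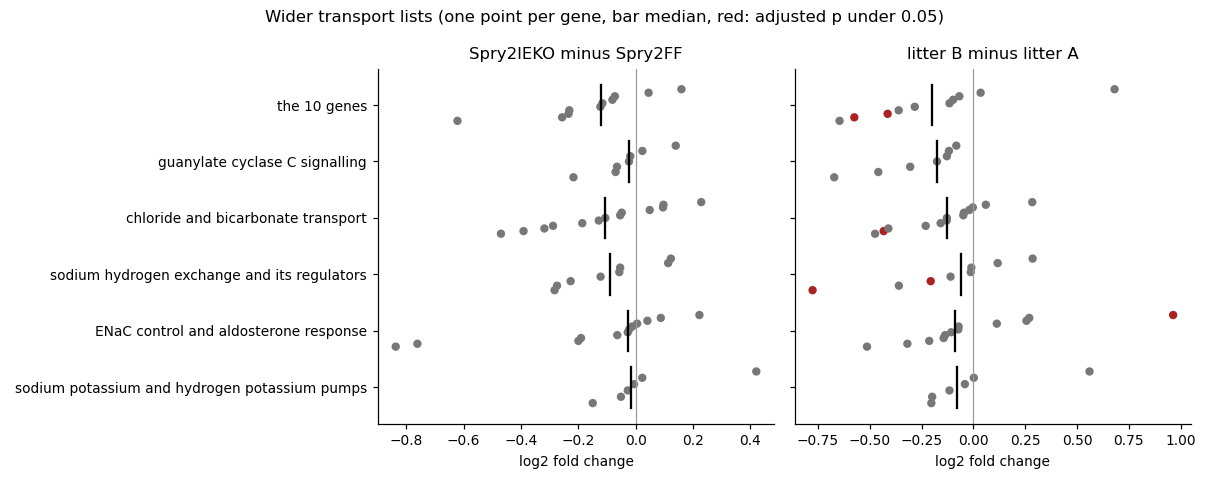
Log2 fold changes (horizontal axes) of the 10 genes and of 5 wider lists of transport genes between genotypes (left) and litters (right), with a point per gene, a vertical bar at the median and red for an adjusted p under 0.05 by limma. No point is red by genotype, and by litter 2 of the 10 genes and 4 of the 46 wider genes are.

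The genes whose log2 values followed each of the 10 most closely over the 12 mice were named by Pearson correlation among 10708 genes with a mean of at least 5, as a description. All these points share their libraries, litters and tissue mix. Slc26a3 was closest to Akr1c13 (r = 0.96) and Gstp1 (0.95), Slc9a2 to Gpr137b-ps (0.96) and Ptprh (0.95), and Cftr to Rap2a (0.95) and Cttnbp2nl (0.93). Scnn1a was closest to Supt6 (0.95) and Rab11fip1 (0.94), and Gucy2c to Farp2 (0.91) and Hnf4a (0.91). Guca2a was closest to Smad3 (0.90) and Mast4 (0.89), and Guca2b to Lig1 (0.90) and Banf1 (0.89). Scnn1g was closest to Nat8f1 (0.95) and then to Scnn1b (0.88), the single case in which another of the 10 genes was among the nearest 2. Scnn1b itself was closest to Imp4 (0.91) and 3830406C13Rik (0.89), and Slc9a3 to Nostrin (0.87) and Heph (0.84).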

How the data were processed

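The authors sequenced RNA from the distal colon of 12 mice and quantified mouse transcripts (mm10) by pseudoalignment with kallisto. Per the labels the library kit was stranded, and whether strand was used in quantification is not given in the sources used here. The values deposited per transcript are a signal, TPM rescaled between mice, so the read depth of each mouse cannot be recovered. The paper gives only an approximate depth per sample. The authors' own test columns (p-values, q-values and effect sizes) were also in the table and were not used. Of 113974 rows, 781 repeated a transcript with identical values and were dropped. Transcripts were summed to gene symbols after 28 genes whose names had become dates were renamed. Gene positions and transcript types came from GENCODE M21.

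For 15879 genes averaging 0.5 or more, log2(value + 0.5) was fitted with limma 3.58.1 (R 4.3.3, trended eBayes), and two-sided p-values were adjusted by Benjamini-Hochberg over all of them. Fold changes of low genes are understated on this scale. Genotype was fitted without covariates and litter with genotype as a covariate. The p-values measure the spread between these mice. Exact permutation tests used 924 splits of the mice, or 400 within litters or genotypes, and give raw p-values for 10 genes and 5 ratios in 2 comparisons. Ratios were tested as log2 ratios with 0.5 added to each value, while their printed means and SDs are of plain ratios. The tests were planned for TPM and were kept for the rescaled signal. In simulated data with 200 of 15879 genes changed, limma recovered 31.5% of log2 changes of 0.5 by genotype and 78.5% of changes of 1. It recovered 38% and 66.5% by litter, and 0% and 36.5% for the difference between litters in the genotype effect. Wrong calls were at most 6.55% of calls. A count of 0 genes passed thus does not show that no change was present. Other settings were 2 other pseudocounts, other filters and scalings, covariates, single litters or genotypes, females alone, and leaving out each mouse. Leaving out 2 mice rich in adipocyte genes, coding transcripts alone, ratios by litter and transcript shares were added after seeing the data. The genes, lists and tests were chosen with earlier results of these data known. All 10 genes are named, with the 3 highest and 3 lowest log2 changes of the wider lists in each comparison and any that passed. Ratios, permutations and plots were made in Python 3.11.15 (SciPy 1.17.1, NumPy 2.4.6, with pandas 2.3.3, and matplotlib 3.10.9 for figures).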

Additional observations from a re-analysis of the deposited data

Results flagged for a closer look

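A single value stood apart from the rest of its group. In Spry2FF replicate 10, a female of litter B, Scnn1g was 1.75 times Scnn1b, while the other 5 Spry2FF mice lay between 1.13 and 1.33. It was found among 30 groups of 6 mice that were tested for an outlying mouse (the 10 genes and 5 ratios in each genotype), and chance alone marks about 1 in 20. That mouse also held the highest Scnn1g (36.6) and Guca2b (22.0) of the 12.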

How the results depend on the processing

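No paired analysis was possible because the genotypes share no replicate numbers. They do share litters, and with litter as a covariate 6 genes and 0 of the 10 passed by genotype. The depth of each mouse is unknown, so counting error could not be set beside the spread between mice. The cause of the shifts below was not tested, beyond the smaller number of mice where mice were left out. By genotype, 0 of the 10 genes and 0 of the wider transport genes passed under every setting run, and the direction of Scnn1a and Slc9a2 held throughout. The genes called by genotype (5) became 1 without a filter on low values, 3 at a mean of at least 5, 2 with quantile normalization, 8 with epithelial markers as the scale, 1 with sex as a covariate, 2 in litter A alone, 1 in litter B alone, 2 in females alone and 1 without the 2 mice richest in adipocyte genes. They ranged from 1 (without Spry2FF replicate 2) to 11 (without Spry2IEKO replicate 8) when a mouse was left out.

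The genes called by litter (696) became 422 without a filter, 1456 with every mouse scaled to the same total (105 higher and 1351 lower), 461 with quantile normalization (205 higher and 256 lower), 114 with epithelial markers as the scale (43 higher and 71 lower), 1 in females alone, 1 in Spry2FF alone, 1 in Spry2IEKO alone and 17 without the 2 mice richest in adipocyte genes. They ranged from 180 (without Spry2IEKO replicate 5) to 957 (without Spry2IEKO replicate 8). Of the 10 genes, the 2 called by litter became 3 at a mean of at least 5 (Slc26a3 was then called higher) and 1 without a filter, with quantile normalization, with epithelial markers as the scale and with coding transcripts alone. The count became 0 in females alone, in Spry2FF alone, in Spry2IEKO alone and without the 2 mice richest in adipocyte genes. They ranged from 0 (without Spry2FF replicate 3 or Spry2IEKO replicate 6) to 2 when a mouse was left out. The 4 wider genes called by litter became 2 without a filter, 9 with every mouse scaled to the same total, 1 with epithelial markers as the scale, 7 with sex as a further covariate, and 0 in females alone, Spry2FF alone, Spry2IEKO alone and without the 2 mice richest in adipocyte genes. They ranged from 1 to 8 (without Spry2IEKO replicates 5 and 8). The 2 genes called for a genotype effect that differed between litters became 0 at a mean of at least 5 and in females alone, and ranged from 2 to 5 (the latter without Spry2IEKO replicate 12).

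Direction reversed only for values that had not passed. By genotype, the log2 fold change turned to 0.044 for Cftr, 0.0012 for Gucy2c and 0.034 for Scnn1g with epithelial markers as the scale. In females alone it turned to 0.035 for Guca2a, -0.0063 for Guca2b, 0.031 for Slc26a3 and 0.18 for Slc9a3. In litter B alone it turned to -0.022 for Guca2b, -0.17 for Scnn1b, 0.12 for Slc26a3 and 0.18 for Slc9a3, and in litter A alone to 0.55 for Scnn1g. With sex as a covariate Guca2b was -0.10, and without the 2 mice richest in adipocyte genes Guca2b was -0.020, Scnn1b -0.016 and Slc26a3 0.12. By litter, it turned to 0.11 for Guca2b in females alone, to 0.042 for Scnn1b, 0.27 for Scnn1g and -0.19 for Slc9a2 in Spry2FF alone, and to 0.16 for Slc9a3 in Spry2IEKO alone. Slc9a2 was -0.045 with equal totals and -0.051 without the 2 mice richest in adipocyte genes. The difference between litters in the genotype effect turned to -0.038 for Cftr and -0.047 for Scnn1a with epithelial markers as the scale, to -0.030 for Cftr with coding transcripts alone, to -0.033 for Guca2a, 0.17 for Guca2b and -0.078 for Scnn1a with sex as a covariate, and to -0.050 for Scnn1a in females alone.

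Without the 2 mice richest in adipocyte genes the log2 ratios turned to 0.018 for Scnn1b to Scnn1a and 0.021 for Scnn1g to Scnn1b by litter and to -0.31 for Cftr to Slc26a3 by genotype, and Scnn1g to Scnn1b passed by genotype (-0.42). Those mice are both Spry2IEKO of litter A, so genotype was then mixed with litter. In females alone the log2 ratios by genotype turned to 0.041 for Guca2a to Guca2b, -0.34 for Slc9a2 to Slc9a3 and -0.16 for Cftr to Slc26a3, the Slc26a3 retained-intron share turned to -0.45 percentage points, and the ratio of Guca2a to Guca2b passed by litter (-0.64). With a mouse left out, log2 fold changes by genotype ran from -0.15 to 0.042 for Cftr, -0.054 to 0.17 for Guca2b, -0.25 to 0.14 for Scnn1g and -0.31 to 0.019 for Slc26a3, and by litter from -0.25 to 0.0076 for Guca2b and -0.012 to 0.085 for Slc9a2. The differences between litters in the genotype effect ran from -0.17 to 0.14 for Cftr, -0.085 to 0.24 for Guca2a, -0.37 to 0.20 for Guca2b and -0.071 to 0.062 for Scnn1a. Differences of means by genotype ran from -0.691 to 1.76 normalized TPM for Guca2b, -3.94 to 1.05 for Cftr, -163.6 to 49.4 for Slc26a3 and -3.21 to 1.996 for Scnn1g, and by litter from -1.997 to 0.451 for Guca2b and -2.32 to 4.63 for Slc9a2. Log2 ratios by litter ran from -0.19 to 0.054 for Scnn1g to Scnn1b and from -0.65 to -0.37 for Guca2a to Guca2b, which passed without Spry2FF replicate 9 or Spry2IEKO replicate 5. By genotype they ran from -0.13 to 0.29 for Cftr to Slc26a3 and from -0.33 to -0.13 for Scnn1g to Scnn1b, which passed without Spry2IEKO replicate 5. The Slc26a3 retained-intron share by genotype ran from -0.55 to 0.97 percentage points. Slc9a3 has a mean under 5 and gives no value at that filter.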
